A study of Oryza sativa with 12 samples.

Results

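Inflorescence meristems of the rice double mutant fon2-3 asp1-fe were set against those of wild type (WT), with 3 arrays per genotype. These 6 arrays are those whose titles carry the 2 genotypes, out of 12 arrays in the series, and all 15140 genes with a probe of their own were compared. The other 6 arrays, 3 of the single mutant fon2-3 and 3 of the single mutant asp1-10, entered as the lines to which the double mutant was held. The double mutant carries the asp1-fe allele, whereas the single asp1 line carries asp1-10, so allele and fon2-3 are both changed between these lines. The labels give no strain for WT or the mutants and do not say whether replicates came from separate plants, and the p-values therefore cover no more than the scatter among these arrays, which may be technical. All plants grew outdoors in pots. The meristems were cut out under a microscope when the inflorescence had just begun to form. A few bracts, the small leaves beneath the meristem, were still attached, so each array holds a mixture of meristem and bract RNA.

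FON2 encodes a small secreted peptide of the CLAVATA3 type, which restrains the size of rice meristems through a pathway that includes the receptor kinase FON1. ASP1 encodes a corepressor of the TOPLESS type, a protein without a DNA-binding domain of its own that transcription factors, among them the Aux/IAA proteins of the auxin response, recruit to silence genes. Rice inflorescence meristems form branches first and spikelets, the grass flower units, later, and the timing of that switch shapes the panicle. Neither FON2 nor ASP1 had a probe under these names, so the mutated genes themselves were not analysed here and the genotype labels could not be checked on them.

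Values are deposited signals taken as log2, so a difference of 1 stands for a factor of 2. Array medians ran from 5.51 to 5.54 in WT and from 5.54 to 5.58 in the double mutant. Across genes, arrays correlated at 0.981 to 0.984 within WT, at 0.983 to 0.986 within the double mutant and at 0.967 to 0.974 between the genotypes, with genes not being independent replicates. The values carry no call of detection over background, so a mean below 5.55, the median of all values, is called dim here, and a difference that starts or ends there can be too small. The labels name no batch or date. The meristem gene OSH1 was above 5.55 on all 6 arrays. Of 8 genes of floral organs MADS1, MADS3, MADS5 and MADS17 were dim, and none of the 8 passed the test. Their summed level was 11.50 to 11.59 in WT and 11.42 to 11.55 in the double mutant, set mainly by MADS18 and DL.

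In the double mutant 438 genes rose and 248 fell against WT, 686 of 15140 genes or 4.53%, of which 2.89% rose and 1.64% fell. Over all probes, named or not, 4.29% changed. Of the 1735 genes with a name, from which the gene lists below were drawn, 115 or 6.63% changed. A list share near 6.63% is therefore no result about that list. The lists were chosen with earlier results of these data known, so a share above 6.63% is no test of a list either. A gene is said to rise, fall or change where its adjusted p from the limma fit over all 12 arrays was below 0.05. The median change was a log2 of 0.79 among rises and -0.92 among falls, beside 0.01 over all genes. Changes of at least 2-fold numbered 122 upward and 109 downward. All 686 changed genes had 3 double mutant arrays on one side of the 3 WT arrays, as did 32.3% of all genes, 19.2% higher and 13% lower. Among rises the median WT level was 6.96 and the median double mutant level 7.96. Among falls these medians were 7.58 and 6.47. The share of changed genes was 0.666% where the WT level was below 4 and 3.3% between 4 and 6. It lay between 5.2% and 6.3% in every higher class of WT level.

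The balance of rises and falls depended on how the arrays were scaled. As deposited, 63.8% of the changed genes rose. After quantile normalization it was 49.9% of 619 genes, after cyclic loess 53.8% of 598 genes, and after centring each array on its median 57.9% of 639 genes. The number of calls also depended on single arrays, as the bar plot of calls with each array left out shows. A fit with an array left out has fewer arrays, so a lost call does not by itself show that the difference rested on that array. Without double mutant replicate 2 only 5 genes passed, and with its replicate 1 or 3 left out instead, 155 or 290 did. Leaving out WT replicates 1, 2 and 3 in turn gave 68, 407 and 92 genes. Without asp1-10 replicate 3, which enters the comparison only through the shared estimate of spread, the count was 1127, and without fon2-3 replicate 3 it was 455. The 5 genes that passed without double mutant replicate 2 were LOC4326339, ASPR2, LOC4328784, LOC4344728 and LOC4348343, named here after their values were seen.

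**Figure D1:**
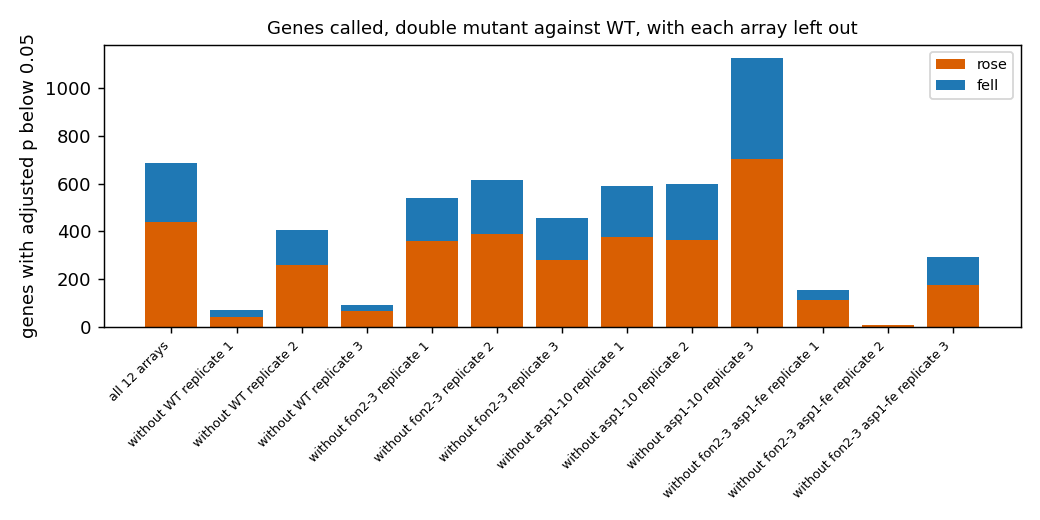
Number of genes with an adjusted p below 0.05 in the double mutant against WT (vertical axis, stacked bars for genes that rose and fell) for all 12 arrays and with each array left out in turn. The full set gave 686 genes, leaving out double mutant replicate 2 gave 5, and leaving out asp1-10 replicate 3 gave 1127.

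The rise with the smallest p was that of LOC4326339, a gene without a name in the RefSeq table. It read 3.31, 3.52 and 4.05 in WT and 6.51, 7.0 and 7.08 in the double mutant. All WT arrays were dim and all double mutant arrays lay at least 2 log2 units above them. The rise was a log2 of 3.24 ± 0.23 (SE), or 9.42-fold, with an adjusted p of 0.000365. A second probe of the gene had means of 2.36 in WT and 6.29 in the double mutant, a log2 difference of 3.93 with an adjusted p of 1.51e-05. In both single mutants the gene stayed near WT, with means of 3.98 in fon2-3 and 3.77 in asp1-10. Only genes with a probe were counted as neighbours along the chromosome. Within 5 such genes on either side, CARB, 4 away, was the only other gene that changed, with a log2 rise of 0.72 and an adjusted p of 0.0373.

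Among the known parts of the FON and TOPLESS machinery, 1 gene changed. ASPR2, a TOPLESS-related gene and thus a relative of the mutated ASP1, read 8.74, 8.74 and 8.78 in WT and 10.88, 10.75 and 11.13 in the double mutant. The 3 WT arrays lay within 0.04 of each other and the mutant arrays were all about 2 units higher. The rise was 4.49-fold (log2 2.17 ± 0.22 SE, adjusted p = 0.00466), and the call held under all 23 alternative settings. ASPR1, the other TOPLESS-related gene with a probe, read 11.39, 11.32 and 11.33 in WT and 11.43, 11.44 and 11.46 in the double mutant, without passing the test (adjusted p = 0.586). These arrays do not overlap, as is so for 32.3% of genes, and the difference was a log2 of 0.10. The names ASPR1 and ASPR2 follow the synonyms in the RefSeq table.

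None of the 5 measured genes of the CLAVATA and WUSCHEL pathway changed, and their median log2 difference was 0.28. FON1, the receptor kinase for which FON2 is the presumed ligand, read 5.57, 6.0 and 6.69 in WT and 6.39, 6.46 and 7.39 in the double mutant. The groups overlapped and the adjusted p was 0.356. WOX4, a WUSCHEL-related homeobox gene that promotes meristem maintenance in rice, read 6.04, 6.02 and 5.93 in WT and 5.93, 5.85 and 5.96 in the double mutant, also overlapping (adjusted p = 0.73). OsWOX6, OsWOX7 and OsWOX9 were dim, with log2 differences of 0.28, 0.51 and -0.23.

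KNOX homeobox genes keep meristem cells undifferentiated, and some of them rose in the double mutant. Of these, OSH15 and OSH71 also rose against WT in both single mutants. OSH1 was above WT there without passing, by 0.68 in fon2-3 and 0.81 in asp1-10 (adjusted p from limma of 0.108 and 0.0947). For OSH1 the double mutant lay 0.48 above fon2-3 and 0.36 above asp1-10, also without passing (adjusted p of 0.929 and 0.768). Of 7 measured members of the KNOX and BELL list 3 rose, none fell, and the median log2 difference was 1.17, beside 0.01 over all genes. OSH1, the rice counterpart of the maize gene Knotted1, read 7.24, 8.05 and 7.82 in WT and 8.64, 9.06 and 8.91 in the double mutant. Every mutant array was above every WT array, and the rise was 2.25-fold (log2 1.17 ± 0.23 SE, adjusted p = 0.0288). OSH15, another class I KNOX gene, read 6.38, 6.79 and 7.12 in WT against 7.61, 8.46 and 8.24, a 2.53-fold rise (adjusted p = 0.0243). OSH71 rose 2.29-fold (adjusted p = 0.0284), from 5.14, 5.99 and 5.93 to 6.61, 6.90 and 7.14, with its lowest WT array in replicate 1 as for OSH1 and OSH15. OSH45 read 5.37, 5.53 and 4.80 in WT and 6.42, 6.70 and 7.02 in the double mutant, and its difference of 1.48 did not pass the test (adjusted p = 0.0558). The remaining members, HOS58, HOS59 and HOS66, had log2 differences of -0.02, 0.18 and -0.12. The summed KNOX and BELL level ran from 8.90 to 9.35 in WT and from 9.86 to 10.33 in the double mutant. In these bulk samples more cells of a type and more RNA per cell cannot be told apart, here or for any gene group that follows.

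Genes of inflorescence and spikelet identity gave 2 rises and no fall among 8 members, with a list median of 0.07. APO2, the rice LEAFY counterpart, which holds inflorescence meristems back from becoming spikelets, read 7.52, 8.29 and 8.02 in WT and 9.49, 9.75 and 9.85 in the double mutant. All mutant arrays were more than 1 unit above the highest WT array, and the rise was 3.38-fold (log2 1.76 ± 0.24 SE, adjusted p = 0.0137). MOF1, a MYB-type repressor that limits the number of florets in a spikelet, rose 4.58-fold (log2 2.19 ± 0.26 SE, adjusted p = 0.00974). Its arrays read 6.54, 6.83 and 6.42 in WT and 8.54, 8.85 and 8.97 in the double mutant, again without overlap. Members that did not pass included the branching regulator LAX1, whose WT arrays read 4.50, 7.13 and 7.18 against 5.51, 5.66 and 6.35 in the double mutant, with replicate 1 far below the other WT arrays. NL1, PLA1, FZP and Gn1a had log2 differences of 0.81, 0.12, -0.10 and 0.02, FZP and Gn1a being dim.

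DL, a YABBY gene that specifies the carpel, read 10.14, 10.38 and 10.06 in WT and 10.22, 10.14 and 10.24 in the double mutant, overlapping fully (log2 0.01, adjusted p = 0.988). The sign of that small difference turned with scaling, to -0.08 under quantile normalization. DL was lower in asp1-10, and that comparison is given with the single mutants.

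Whether the 5 calls in the KNOX and the inflorescence and spikelet lists passed depended on which array was left out. With WT replicates 1, 2 and 3 left out in turn, the number that held was 2, 5 and 3. For double mutant replicates 1, 2 and 3 it was 3, 0 and 2, and with replicate 2 left out their adjusted p ran from 0.0584 to 0.109. For APO2 and MOF1 that array was the only one whose removal ended the call, with an adjusted p of 0.0627 for APO2 and 0.0584 for MOF1. Without it their log2 differences were 1.73 and 2.16, beside 1.76 and 2.19 with all arrays.

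Of 21 MADS-box genes 1 rose and 1 fell, 9.52% beside 6.63% of named genes. Their median log2 difference of 0.04 became -0.02 under quantile normalization. MADS34, a SEPALLATA-type gene that promotes spikelet meristem identity, read 6.11, 6.90 and 7.60 in WT and 9.47, 9.83 and 9.98 in the double mutant. The WT arrays spread over 1.5 units, yet the lowest mutant array was nearly 2 units above the highest of them. This was the largest rise of any named gene, 7.42-fold (log2 2.89 ± 0.60 SE, adjusted p = 0.0305). The call ended when any 1 of the 6 WT and double mutant arrays was left out, at adjusted p values from 0.0564 to 0.108. Its log2 difference ran from 2.51 to 3.26 over all 23 alternative settings. In asp1-10 the mean was 9.64 and in fon2-3 it was 7.12, with fon2-3 arrays at 6.84, 8.75 and 5.78. MADS57, the fall, was dim in both genotypes, from 3.22, 3.58 and 3.46 to 2.44, 2.57 and 2.98 (adjusted p = 0.0334).

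**Figure D2:**
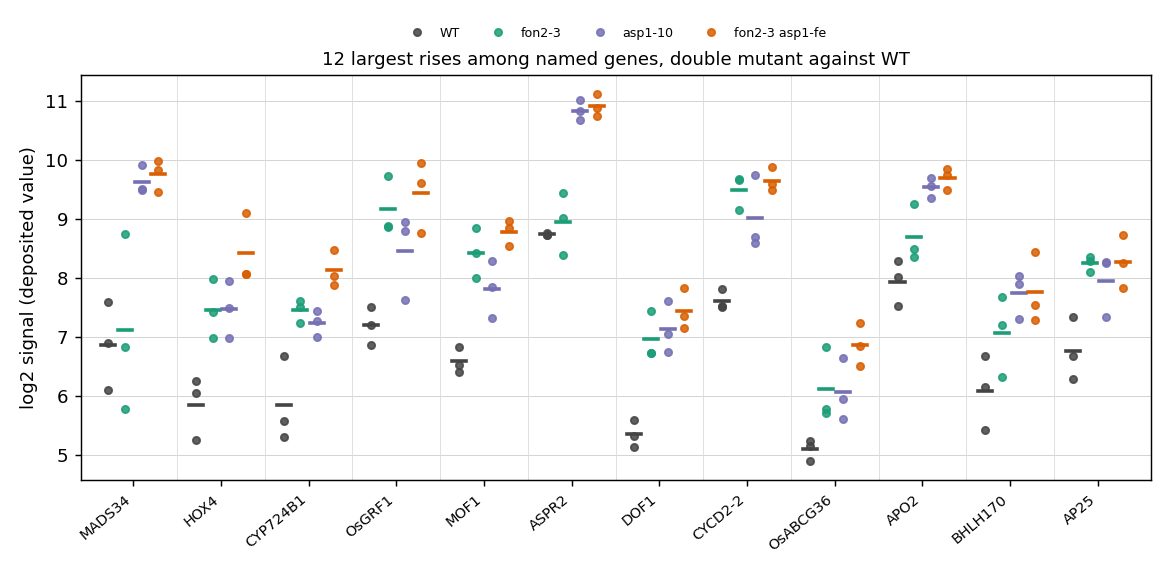
Deposited log2 signal (vertical axis) of the 12 named genes with the largest rises in the double mutant, for WT, fon2-3, asp1-10 and the double mutant. Points are arrays and short bars are means of 3 arrays. Each double mutant array lies above every WT array, and MADS34 has the largest rise, a log2 of 2.89.

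Other families of developmental transcription factors held 13 further changes. OsGRF1, a growth-regulating factor, a family that promotes cell proliferation in young organs, read 6.88, 7.52 and 7.20 in WT and 8.77, 9.95 and 9.62 in the double mutant. Each mutant array exceeded each WT array by at least 1 unit, and the rise was 4.75-fold (log2 2.25 ± 0.39 SE, adjusted p = 0.0197). GRF6 rose 1.85-fold (adjusted p = 0.0223), while GRF11 and GRF12 had log2 differences of 0.10 and 0.09, so 2 of 4 members rose at a list median of 0.49.

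Homeobox genes of the HD-Zip type gave 4 rises and 1 fall among 21, with a median of 0.21. HOX4, a class I member, read 5.26, 6.26 and 6.05 in WT and 8.08, 9.11 and 8.07 in the double mutant. It was dimmest in WT replicate 1 and brightest in double mutant replicate 2, and rose 5.92-fold (log2 2.56 ± 0.38 SE, adjusted p = 0.0137). The other rises were all class III genes, which set the upper side of lateral organs and act in shoot meristems. Hox9 read 8.16, 8.57 and 8.31 in WT and 9.33, 9.44 and 9.27 in the double mutant, a log2 of 1.0 ± 0.14 (SE, adjusted p = 0.0137). Arrays of hox32 stood at 9.27, 9.07 and 9.11 against 10.17, 10.17 and 10.10, also a log2 of 1.0 (adjusted p = 0.0108), and both pairs of groups were tight and apart. HOX10 rose by 0.61 (adjusted p = 0.0338), and HOX33, another class III member, differed by 0.63 without passing (adjusted p = 0.0694). HOX24 fell by 0.56 on the log2 scale at a dim level (adjusted p = 0.0494). Roc4 and Roc5, class IV genes of the epidermis, missed the threshold at log2 differences of 0.85 and 0.47 (adjusted p of 0.0555 and 0.0512).

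DOF1, a zinc-finger factor of the Dof family, rose 4.28-fold (log2 2.10 ± 0.27 SE, adjusted p = 0.0111), from 5.14, 5.60 and 5.33 to 7.15, 7.36 and 7.84. All 3 mutant arrays stood more than 1.5 units above the WT arrays. DOF2 rose 1.81-fold (adjusted p = 0.0487), and DOF4 differed by 1.49 with an adjusted p of 0.0576. Among 6 SPL factors, which time the passage between developmental phases, 2 rose. SPL7 read 7.05, 7.35 and 7.37 in WT and 8.15, 8.67 and 8.49 in the double mutant, 2.27-fold higher and without overlap (adjusted p = 0.0214). SPL6 rose 1.46-fold (adjusted p = 0.0336). PCF5, a TCP factor, rose 2.41-fold from 4.99, 5.48 and 4.89 to 6.74, 6.12 and 6.31 (adjusted p = 0.0375), the only one of 6 TCP members to pass.

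No YABBY factor among 6 passed, although 6 of 6 differences were above 0, that of DL turning below 0 under the other scalings. OsYAB2 and OsYAB3 had the largest, 1.13 and 0.79, with adjusted p values of 0.0668 and 0.0579. The bZIP gene BZIP52 fell 3.95-fold (log2 -1.98 ± 0.35 SE, adjusted p = 0.0195). Its WT arrays read 7.39, 8.33 and 7.39 and its double mutant arrays 5.69, 5.78 and 5.70, which lay within 0.1 of each other. No NAC factor of 7 and no WRKY factor of 5 passed. The lowest in these families, OsNAC6 and OsWRKY71, both known as stress-responsive, had differences of -1.71 and -1.59 and adjusted p values of 0.103 and 0.104. The transcription factor families, MADS-box included, held 15 calls among 95 genes. Of these calls 4, 8 and 6 held with WT replicates 1, 2 and 3 left out in turn. For double mutant replicates 1, 2 and 3 the counts were 6, 0 and 9, and without replicate 2 the adjusted p ran from 0.0596 to 0.169.

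**Figure D3:**
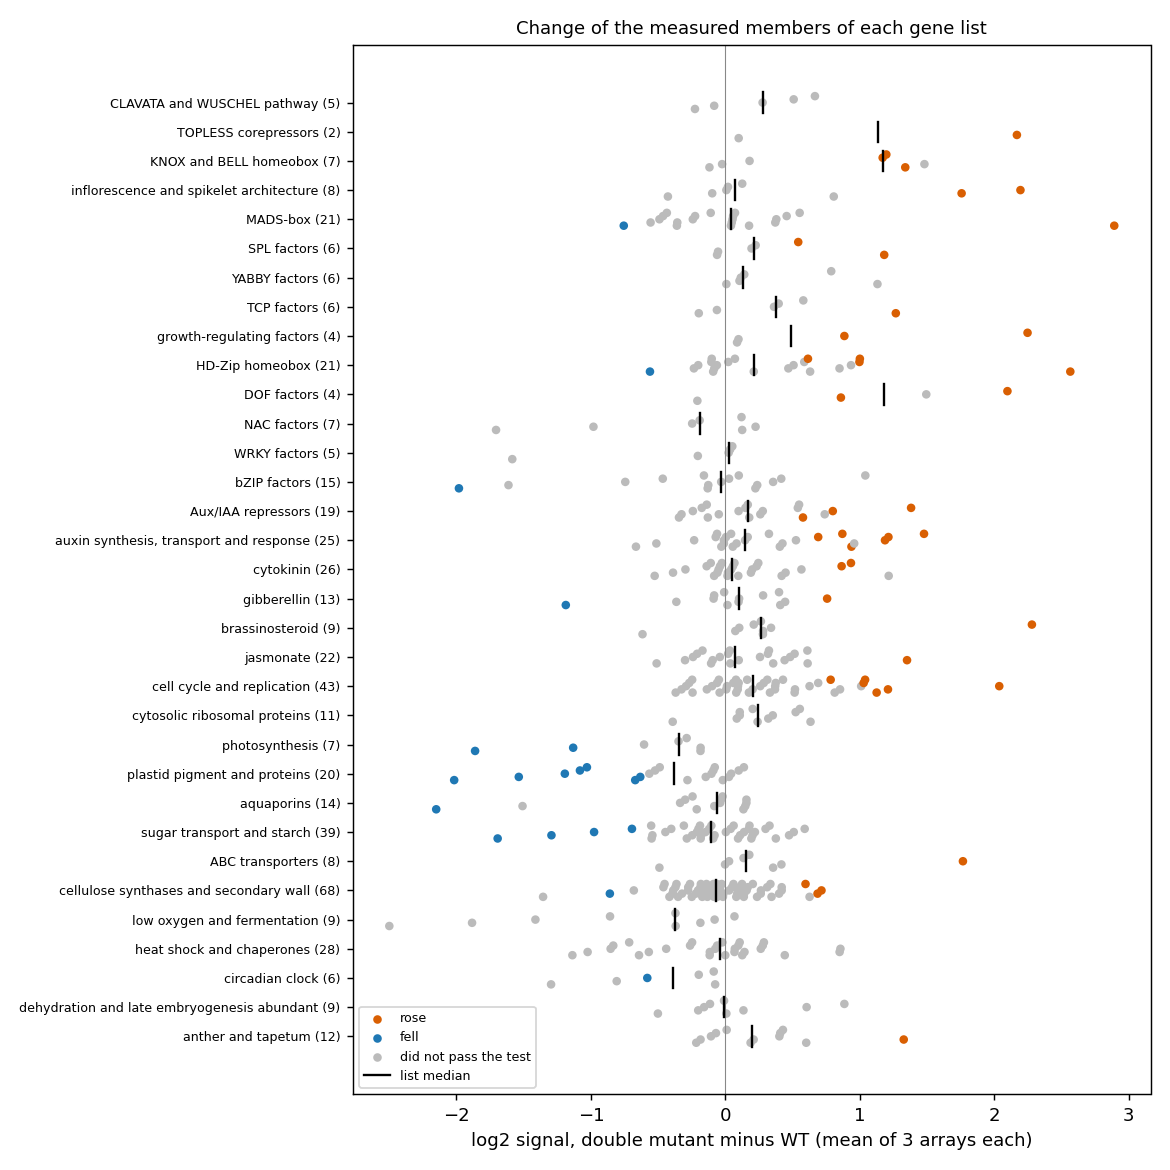
Log2 difference between the double mutant and WT (horizontal axis, means of 3 arrays each) for every measured member of 33 gene lists, with the number of members in brackets. Orange points rose, blue points fell, grey points did not pass the test, and black bars are list medians. Rises lie mainly in the developmental, hormone and cell cycle lists, while all 9 calls in the photosynthesis and plastid lists are falls.

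Auxin genes changed upward only. Among 25 genes of auxin synthesis, transport and response, 6 rose and none fell, with a median of 0.15. Of the 6, 5 were auxin response factors, the DNA-binding proteins through which auxin acts. ARF3 read 9.06, 9.48 and 9.08 in WT and 10.55, 10.92 and 10.58 in the double mutant, all more than 1 unit higher, a 2.78-fold rise (log2 1.48 ± 0.28 SE, adjusted p = 0.0234). ARF14 rose 2.32-fold (adjusted p = 0.0212), ARF5 1.91-fold (adjusted p = 0.0153) and ARF15 1.83-fold (adjusted p = 0.0287). The gene ARF2 at LOC4325895 rose by 1.19 and FIB, an enzyme of auxin synthesis, by 0.69 (adjusted p = 0.043 for each).

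Aux/IAA repressors, which bind response factors and recruit TOPLESS-type corepressors, gave 3 rises and no fall among 19, with a median of 0.17. IAA2 read 5.95, 6.33 and 6.16 in WT and 7.24, 7.58 and 7.77 in the double mutant. The groups were about 1 unit apart at their closest, and the rise was 2.6-fold (log2 1.38 ± 0.18 SE, adjusted p = 0.0116). IAA7 and IAA17 rose 1.74-fold and 1.49-fold (adjusted p of 0.0367 and 0.0445). GH3-8, which conjugates auxin to amino acids, differed by 0.96 without passing (adjusted p = 0.0571).

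In the other hormone lists 1 or 2 genes changed. CYP724B1, the cytochrome P450 of brassinosteroid synthesis known as D11, read 5.58, 6.68 and 5.30 in WT and 7.88, 8.05 and 8.47 in the double mutant. WT replicate 2 was over 1 unit above its fellow arrays but still below every mutant array, and the rise was 4.85-fold (log2 2.28 ± 0.30 SE, adjusted p = 0.0118). It was the only call among 9 brassinosteroid genes, and CYP734A6, of the family that inactivates these steroids, differed by -0.62 without passing (adjusted p = 0.0625). BHLH170, an atypical basic helix-loop-helix factor, rose 3.17-fold (log2 1.67 ± 0.41 SE, adjusted p = 0.0477), from 5.43, 6.16 and 6.69 to 7.30, 8.44 and 7.54.

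Of 13 genes of gibberellin and related diterpenoid metabolism and signalling, 1 fell and 1 rose. GA20OX3, a gibberellin synthesis enzyme, fell 2.28-fold (log2 -1.19 ± 0.17 SE, adjusted p = 0.0137), from 7.45, 7.64 and 7.70 to 6.07, 6.41 and 6.75. All mutant arrays were lower than all WT arrays. SLRL1, related to the DELLA repressor of gibberellin signalling, rose 1.69-fold (adjusted p = 0.0336). Among 26 cytokinin genes 2 rose, 7.69% beside 6.63% of named genes. They were OsRR1, a type-A response regulator induced by cytokinin (1.91-fold, adjusted p = 0.0174), and HK5, a histidine kinase of the cytokinin receptor family (1.82-fold, adjusted p = 0.0178). The arrays of OsRR1 were 6.59, 6.75 and 6.98 in WT and 7.44, 7.91 and 7.76 in the double mutant, and those of HK5 were 6.60, 6.68 and 6.56 against 7.43, 7.28 and 7.71. Neither gene's groups overlapped. OsRR5, another response regulator, differed by 1.21 with an adjusted p of 0.0558. Among 22 jasmonate genes only OPR10 rose (4.55%), at a dim level, from 3.28, 3.56 and 4.12 to 5.40, 4.46 and 5.15 (adjusted p = 0.0422).

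The hormone lists held 15 calls among 113 genes. Of these calls 3, 9 and 5 held with WT replicates 1, 2 and 3 left out in turn. For double mutant replicates 1, 2 and 3 the counts were 7, 0 and 9. With double mutant replicate 2 left out, their adjusted p ran from 0.0596 to 0.153.

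Cell cycle and replication genes gave 6 rises and no fall among 43, with 32 differences above 0 (25 after cyclic loess) and a median of 0.20. CYCD2-2, a D-type cyclin that drives entry into the cycle, read 7.52, 7.83 and 7.52 in WT and 9.89, 9.50 and 9.59 in the double mutant. The mutant arrays were all more than 1.5 units higher, and the rise was 4.1-fold (log2 2.04 ± 0.27 SE, adjusted p = 0.0119). ORC4, a subunit of the origin recognition complex, rose 2.31-fold from 7.01, 7.31 and 7.42 to 8.33, 8.62 and 8.41 (adjusted p = 0.0226). MCM2, part of the replicative helicase, rose 2.05-fold (adjusted p = 0.0474), OsRPA32, which coats single-stranded DNA, by 1.12 (adjusted p = 0.0494), OsRBR1, the retinoblastoma-related regulator, by 1.03 (adjusted p = 0.0483), and CYCD5-3 by 0.78 (adjusted p = 0.0337).

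WT replicate 2 was the highest WT array for MCM2, OsRPA32, OsRBR1, OsMCM6, MCM3 and OsRPA70b. MCM2, for example, read 8.77, 9.42 and 8.78 in WT and 9.83, 10.34 and 9.91 in the double mutant, whose replicate 2 was again the highest. OsMCM6, MCM3 and OsRPA70b differed by 1.01, 0.81 and 0.85 without passing (adjusted p of 0.0685, 0.0877 and 0.0607). None of 11 cytosolic ribosomal protein genes passed, although 10 differences were above 0 and their median was 0.24. Of the 6 calls, 1, 5 and 1 held with WT replicates 1, 2 and 3 left out in turn, and 1, 0 and 2 for double mutant replicates 1, 2 and 3, at an adjusted p of 0.0596 to 0.170 when replicate 2 was left out.

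In the photosynthesis and plastid lists all 9 calls were falls. Among 7 photosynthesis genes 2 fell and none rose, with all 7 differences below 0 and a median of -0.35. OEE3, a protein of the oxygen-evolving complex of photosystem II, read 7.51, 7.47 and 7.50 in WT and 5.97, 5.55 and 5.37 in the double mutant. The WT arrays were nearly equal and about 1.5 units or more above the mutant ones, a 3.63-fold fall (log2 -1.86 ± 0.41 SE, adjusted p = 0.0357). PSAH, a subunit of photosystem I, fell 2.19-fold from 6.55, 5.69 and 6.28 to 5.07, 4.88 and 5.18 (adjusted p = 0.0281). The antenna genes CAB1R, CAB2R and RCABP69 were dim in both genotypes. The summed photosynthesis level was 8.64 to 8.93 in WT and 7.61 to 8.19 in the double mutant, against 7.74 to 8.02 in fon2-3 and 7.78 to 8.55 in asp1-10. Bracts came with the meristems and carry such transcripts, and the part of attached bract tissue in these falls was not tested.

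In the list of plastid pigment and plastid protein genes 7 of 20 fell and none rose, with a median of -0.39. OsPSY1, phytoene synthase, which makes the first carotenoid, read 8.47, 7.43 and 8.35 in WT and 6.36, 6.02 and 5.81 in the double mutant. WT replicate 2 was about 1 unit below its fellow arrays but above all mutant arrays, and the fall was 4.05-fold (log2 -2.02 ± 0.37 SE, adjusted p = 0.022). EGY2, a plastid membrane protease, fell 2.9-fold (adjusted p = 0.0206), from 7.34, 6.94 and 7.66 to 5.94, 5.84 and 5.56. NOL, of the chlorophyll b reductase family, fell 2.29-fold (adjusted p = 0.0462), and RRF, a plastid ribosome recycling factor, 2.12-fold (adjusted p = 0.0138). OsRSH3, which handles the alarmone ppGpp, fell 2.04-fold (adjusted p = 0.0298). CHLH, the large subunit of magnesium chelatase in chlorophyll synthesis, fell by 0.63 and MHZ4, of carotenoid and abscisic acid metabolism, by 0.67 on the log2 scale (adjusted p of 0.0367 and 0.0483).

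WT replicate 2 was the lowest WT array for OsPSY1, EGY2, NOL, RRF, OsRSH3, CHLH and PSAH. Of the 9 calls in the photosynthesis and plastid lists 0, 5 and 1 held with WT replicates 1, 2 and 3 left out in turn, and 2, 0 and 2 held for double mutant replicates 1, 2 and 3. Without WT replicate 1 the adjusted p ran from 0.0517 to 0.138 and without double mutant replicate 2 from 0.0627 to 0.138.

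**Figure D4:**
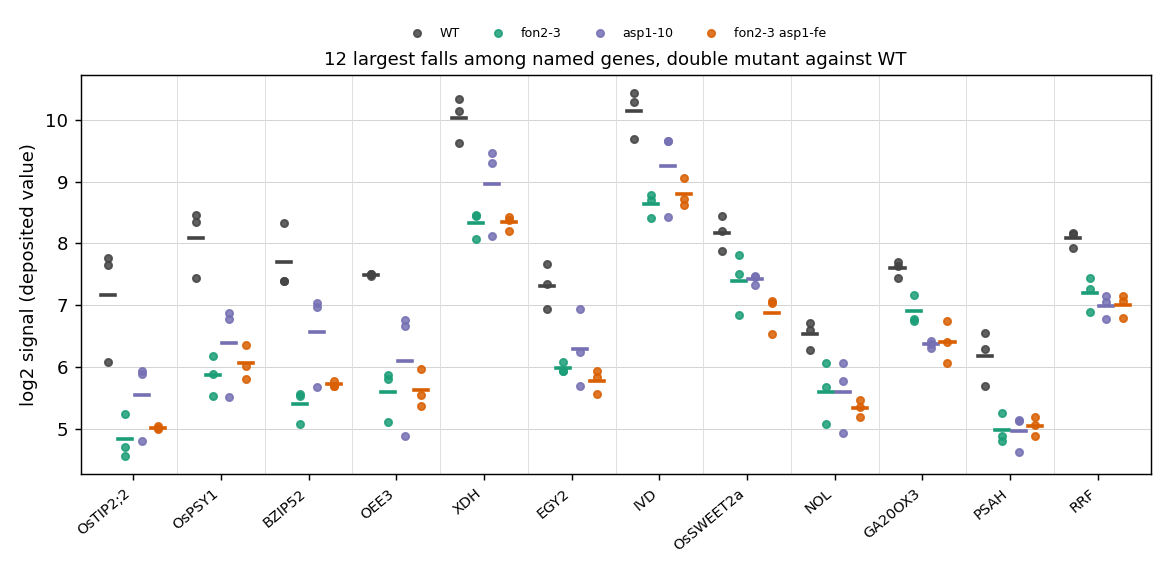
Deposited log2 signal (vertical axis) of the 12 named genes with the largest falls in the double mutant, for WT, fon2-3, asp1-10 and the double mutant. Points are arrays and short bars are means of 3 arrays. Each double mutant array lies below every WT array, and OsTIP2;2 has the largest fall, a log2 of -2.15.

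Transport and metabolism lists held 10 calls among 129 genes, a share near the 6.63% of named genes and so no result about these lists. OsTIP2;2, a water channel of the vacuole membrane, read 7.65, 6.08 and 7.77 in WT and 5.01, 5.04 and 5.0 in the double mutant. WT replicate 2 was over 1.5 units below the other WT arrays while the mutant arrays were nearly equal, and the fall was 4.44-fold (log2 -2.15 ± 0.42 SE, adjusted p = 0.0278). It was the only call among 14 aquaporins, 7.14% beside 6.63% of named genes. The gene named AQP differed by -1.51 with an adjusted p of 0.0625. In the list of sugar transport and starch genes 4 of 39 fell and none rose, with a median of -0.10. That was 10.3% with XDH counted, beside 6.63% of named genes. Of these, 3 were sugar carriers. OsSWEET2a fell 2.45-fold (adjusted p = 0.0223), from 8.44, 7.88 and 8.20 to 7.07, 7.03 and 6.54. OsSUT5, a sucrose transporter, fell 1.97-fold (adjusted p = 0.0178) and OsSWEET4 fell 1.62-fold (adjusted p = 0.0452). The fourth, XDH, is xanthine dehydrogenase in rice, an enzyme of purine breakdown, which the list's name does not describe. It fell 3.24-fold (log2 -1.69 ± 0.31 SE, adjusted p = 0.0218), from 10.33, 9.62 and 10.15 to 8.43, 8.20 and 8.38. IVD, isovaleryl-CoA dehydrogenase of leucine breakdown, fell 2.53-fold (adjusted p = 0.0397), from 10.29, 9.70 and 10.43 to 9.06, 8.72 and 8.62, with WT replicate 2 again the lowest WT array.

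OsABCG36, a pleiotropic drug resistance transporter, rose 3.4-fold (log2 1.77 ± 0.33 SE, adjusted p = 0.0226), from 5.24, 4.90 and 5.16 to 6.51, 6.85 and 7.24, the only call among 8 ABC transporters. AKT1, a potassium channel, rose 2.12-fold (adjusted p = 0.0137), from 6.41, 6.26 and 6.13 to 7.52, 7.46 and 7.07. AP25 rose 2.84-fold (adjusted p = 0.032), from 6.29, 7.35 and 6.68 to 7.84, 8.73 and 8.26. Among 68 genes of cellulose synthesis and secondary walls 3 rose and 1 fell, 5.88% beside 6.63% of named genes, with a median of -0.07. These were the secondary wall cellulose synthase CESA4 (1.64-fold higher, adjusted p = 0.0155), the related CSLD2 and CSLC2 (1.61-fold and 1.51-fold higher, adjusted p of 0.0391 and 0.0405) and the mannan synthase relative CSLA9 (1.81-fold lower, adjusted p = 0.0428). Of the 10 calls in these transport and metabolism lists, 1, 5 and 0 held with WT replicates 1, 2 and 3 left out in turn, and 2, 0 and 3 for double mutant replicates 1, 2 and 3. Without double mutant replicate 2 their adjusted p ran from 0.0691 to 0.137.

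H2B.6, a histone H2B gene, was named because its p against asp1-10 was among the smallest of the changed named genes, and its probes disagreed. The probe with the higher mean rose 1.5-fold, from 8.50, 8.63 and 8.74 to 9.10, 9.37 and 9.16 (adjusted p = 0.0315), and the other fell by 0.63 on the log2 scale (adjusted p = 0.0359). Averaged over both probes the difference was -0.02, so no direction can be given for this gene.

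Stress and environment lists held 1 call among 52 genes, and several of their members varied widely within a genotype. PRR37, a pseudo-response regulator of the circadian clock, fell 1.5-fold (log2 -0.58 ± 0.12 SE, adjusted p = 0.0304), from 10.00, 9.87 and 9.97 to 9.38, 9.45 and 9.27. All 6 clock genes measured had a difference below 0, with a median of -0.39. LHY, a core clock factor with a morning peak, read 9.43, 8.43 and 8.38 in WT and 5.84, 6.34 and 10.16 in the double mutant, where replicate 3 stood apart. OsPCL1, a clock gene of the evening, read 6.25, 6.26 and 2.83 there, with replicate 3 low. Neither passed the test (adjusted p of 0.538 and 0.973). The PRR37 call ended without any 1 of the 6 WT and double mutant arrays, with an adjusted p of 0.0916 without WT replicate 1 and 0.0849 without double mutant replicate 2.

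None of 9 genes of low oxygen and fermentation passed. PDC1, a pyruvate decarboxylase induced when oxygen runs low, read 6.02, 11.58 and 10.94 in WT and 9.51, 6.05 and 5.49 in the double mutant, a range of over 4 units within each genotype. NSHB2, a haemoglobin gene of the same response, read 4.20, 7.64 and 7.74 against 6.03, 4.07 and 3.82. WT replicate 1 and double mutant replicates 2 and 3 were the low arrays for both genes. The list's summed level ran from 11.91 to 13.40 in WT and from 11.55 to 12.28 in the double mutant. None of 28 heat shock and chaperone genes and none of 9 dehydration genes passed. Genes with an SD over 1 among the 3 arrays of a genotype numbered 35 in WT and 60 in the double mutant, 0.231% and 0.396% of all.

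Of 12 anther and tapetum genes 1 rose, 8.33% beside 6.63% of named genes. MIL2, the peptide that in rice anthers acts with the receptor kinase MSP1 to limit the number of spore mother cells, read 6.88, 7.51 and 7.56 in WT and 8.03, 8.95 and 8.96 in the double mutant. Its groups did not overlap and the rise was 2.51-fold (log2 1.33 ± 0.31 SE, adjusted p = 0.0424), and the call held with double mutant replicate 1 left out but with none of the other WT and double mutant arrays left out. MSP1 itself differed by 0.60 without passing (adjusted p = 0.111). The tapetum and pollen wall genes TDR, UDT1, TIP2, CYP703A3, PTC1 and DTC1 were dim in both genotypes. The list's summed level was 9.91 to 10.17 in WT and 10.43 to 10.81 in the double mutant.

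The double mutant was also compared directly with each single mutant line, and few genes passed. Against fon2-3 there were 3 genes, 0.0198% of 15140, and against asp1-10 there were likewise 3, 0.0198%. At an unadjusted p below 0.05 the counts were 791 (5.22%) and 1466 (9.68%), beside 3432 (22.7%) against WT. Without asp1-10 replicate 3 the count against asp1-10 was 39, so the low count depended on that array. Its mean correlation was 0.975 with its own line and 0.983 with the double mutant arrays. For asp1-10 replicates 1 and 2 these were 0.980 and 0.981 with their own line and 0.977 and 0.979 with the double mutant. The fon2-3 arrays, too, correlated slightly more with the double mutant than with each other. In level, 243 of the 438 genes that rose had a double mutant mean above both single mutant means, 169 had one between them and 26 one below both. Among the 248 falls, 142 lay below both, 84 between and 22 above both. For nearly all of these genes the distance from the single mutants did not pass the test. The genes were also chosen by how far the double mutant mean lay from WT, which by itself favours an extreme double mutant mean. These counts therefore cannot show a stronger change in the double mutant than in the single mutants.

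LOC4326339 passed against both lines. Its arrays read 4.23, 4.01 and 3.69 in fon2-3 and 3.88, 3.45 and 3.98 in asp1-10, all dim and far below the 6.51 to 7.08 of the double mutant. The double mutant was higher by a log2 of 2.89 (adjusted p = 0.00184) against fon2-3 and by 3.09 (adjusted p = 0.000591) against asp1-10, and both calls held under all 18 alternatives tried. It was also 1 of 4 genes, 0.0264%, for which the double mutant departed from the sum of both single mutant changes. The others, LOC4340483, LOC4341846 and LOC4344111, read lower in the double mutant than that sum, and like LOC4326339 are named after their values were seen. LOC4344111, for example, averaged 6.23 in WT, 7.36 in fon2-3, 7.46 in asp1-10 and 7.11 in the double mutant.

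ASPR2 separated the double mutant from fon2-3 but not from asp1-10. Its fon2-3 arrays read 8.39, 9.45 and 9.03 and its asp1-10 arrays 11.02, 10.84 and 10.68, the latter overlapping the double mutant. Against fon2-3 the double mutant was 1.96 higher (adjusted p = 0.0284), a call that held under 6 of 18 alternatives, and against asp1-10 the difference was 0.07 (adjusted p = 0.972). DL passed against asp1-10, where it read 8.52, 8.61 and 8.99. The double mutant, level with WT, was higher by 1.49 (adjusted p = 0.0219, held under 8 of 18 alternatives), whereas against fon2-3 the difference was 0.27 (adjusted p = 0.939).

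LOC4325412 and LOC4341024 complete the calls. LOC4325412 read 7.42, 7.34 and 6.81 in WT, 7.31, 7.42 and 7.85 in fon2-3, 6.01, 6.21 and 5.95 in asp1-10 and 6.04, 6.03 and 5.71 in the double mutant. The lines with an asp1 allele were the low ones, and the double mutant was 1.60 below fon2-3 (log2 -1.60 ± 0.19 SE, adjusted p = 0.0382, held under 2 of 18 alternatives). LOC4341024 read 5.53, 5.91 and 5.64 in asp1-10 and 6.70, 6.63 and 6.67 in the double mutant, 0.97 higher (adjusted p = 0.0219, held under 7 of 18 alternatives). Its WT arrays, at 6.35, 6.44 and 6.39, did not differ from the double mutant by the test (adjusted p = 0.186).

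**Figure D5:**
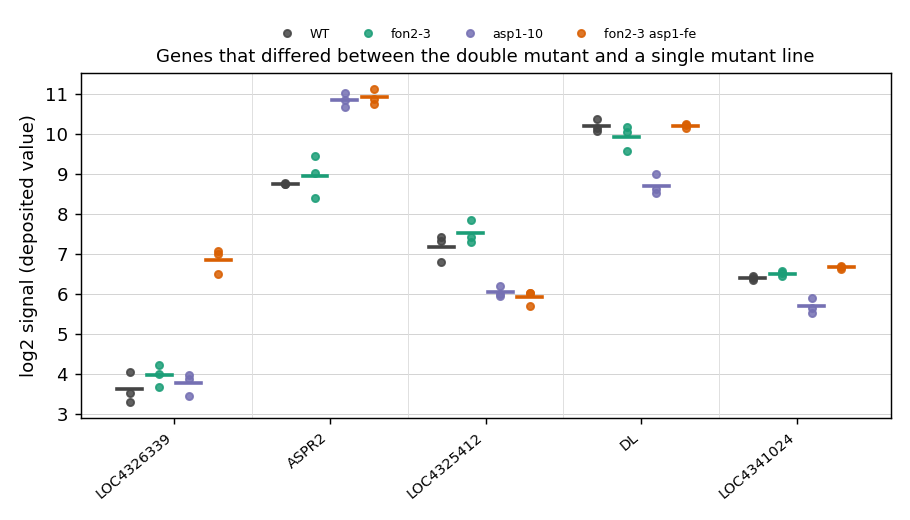
Deposited log2 signal (vertical axis) by array in WT, fon2-3, asp1-10 and the double mutant for the 5 genes that passed in the double mutant against fon2-3 or against asp1-10. Points are arrays and short bars are means of 3 arrays. LOC4326339 is high in the double mutant alone, with a mean of 6.86, and DL is low in asp1-10, with a mean of 8.71.

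Apart from LOC4326339, ASPR2 and LOC4325412, no gene that changed against WT passed against a single mutant. MADS34 differed from fon2-3 by 2.64 (adjusted p = 0.664) and from asp1-10 by 0.12 (adjusted p = 0.985). APO2 differed by 0.99 (adjusted p = 0.727) and 0.16 (adjusted p = 0.935). HOX4 lay 0.96 above fon2-3 and 0.95 above asp1-10, with adjusted p values of 0.897 and 0.585, and AKT1 lay 0.58 and 0.66 above them, with 0.795 and 0.361. OsPSY1 differed from fon2-3 by 0.20 and from asp1-10 by -0.33, with adjusted p values of 0.986 and 0.899. A p above the threshold with 3 arrays per line does not show that the lines were alike.

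Among genes without a name, LOC4332321 had the next largest rise after LOC4326339, from 5.08, 5.60 and 4.69 in WT to 8.05, 8.81 and 7.39 in the double mutant, or 7.76-fold (adjusted p = 0.0163). The largest falls were those of LOC4341305, from 8.58, 7.55 and 8.93 to 4.82, 4.82 and 4.41, or 12.7-fold (log2 -3.67 ± 0.51 SE, adjusted p = 0.0137), and of LOC4332506, from 9.48, 8.76 and 9.42 to 6.34, 6.21 and 5.45, or 9.33-fold (adjusted p = 0.0252). WT replicate 2 was the lowest WT array in both falls. Across chromosomes the share of changed genes ran from 2.46% on chromosome 11 to 5.52% on chromosome 3.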

How the data were processed

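Total RNA was labelled as biotinylated sense-strand DNA and hybridised to 1-colour arrays, per the labels' protocols. Per the submitters' processing notes, the authors used Affymetrix Expression Console 1.3. How signals were summarised and normalized, and which log base applies, is not given in the sources used here. By their range the deposited values were read as log2, and all fold changes assume that base.

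Of 54922 probes, 15829 had 1 listed gene, 440 several and 38653 none. The highest-mean probe stood for each of 15140 genes, all matched to RefSeq IDs of the assembly ASM3414082v1; 1735 had a name there. Without a stated build, no genome positions are printed. Groups came from the sample titles. A limma 3.58.1 model (R 4.3.3; lmFit, eBayes) used all 12 arrays, with a mean for each genotype, 8 residual and 3.22 prior degrees of freedom, two-sided tests and Benjamini-Hochberg adjustment over all probes at 0.05. With 3 arrays against 3, exact permutation cannot reach a p below 0.1, so it was not used, and the number of arrays limits the precision. The fitting code was tested on simulated data.

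The members, the 33 lists and the tests were chosen with earlier results of these data known. List members were matched by symbol, and false matches were removed after gene names were seen. XDH was an exception and stayed in the counts of the sugar list. Named genes were a core set (FON1, WOX4, ASPR1, ASPR2, OSH1, OSH15, OSH71, APO2, MADS34 and DL), the top 12 named genes by size of rise and the top 12 by size of fall, without overlap, up to 4 called members per list, all members of lists of 10 or fewer where values are given, 2 rises and 2 falls without a name, and the 3 called genes with the smallest p against each single mutant. Alternatives covered normalization, filters on dim probes, variance models, the probe rule, the replicate number as a block and leaving out each array. Deviations of same-numbered WT and double mutant arrays correlated at 0.0435, 0.0196 and -0.00315.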

Additional observations from a re-analysis of the deposited data

Results flagged for a closer look

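For 5 genes the difference between the double mutant and a single mutant line was itself past the test, so that the change from WT differed between the lines. LOC4326339 was 2.89 higher (log2) in the double mutant than in fon2-3 and 3.09 higher than in asp1-10. Against fon2-3, ASPR2 was 1.96 higher and LOC4325412 differed by -1.60. Against asp1-10, DL was 1.49 higher and LOC4341024 was 0.97 higher. Each of these rests on 3 arrays per line, and the asp1 alleles of the double mutant and of the single asp1 line differ, so allele and the added fon2-3 cannot be told apart against asp1-10.

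For 4 genes the double mutant departed from the sum of both single mutant changes. The departure, on the log2 scale, was 2.74 for LOC4326339, -1.30 for LOC4340483, -1.07 for LOC4341846 and -1.48 for LOC4344111. Their adjusted p values from limma were 0.0422, 0.0422, 0.0497 and 0.0497. This sum, too, mixes the asp1 alleles. It also includes asp1-10 replicate 3, which correlated more with the double mutant arrays than with its own line.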

How the results depend on the processing

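Against WT, 686 genes passed. The fit on the 6 arrays of the 2 genotypes, quantile, cyclic loess and median scaling, a variance trend with a robust prior, adjustment over genes and the mean of all probes gave 598 to 959. Leaving out dim probes gave 1376, array weights 1247 and a minimum absolute log2 change of 1 gave 231. Leaving out 1 array gave 5 to 1127 genes. Against fon2-3 and against asp1-10, each with 3 genes, the fit on the 2 genotypes alone gave 1 and 1, and leaving out 1 array gave 1 to 5 and 1 to 39.

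The sample titles do not tell whether same-numbered replicates belong together, and the low correlations of their deviations given above cannot settle it. With the replicate number as a block, 372 genes passed against WT, 1 against fon2-3 and 1 against asp1-10; the block also spends degrees of freedom.

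The DL difference from WT, 0.01, became -0.0781 under quantile normalization, -0.0899 under cyclic loess and -0.0212 after median centring, and ran from -0.0594 to 0.0984 with 1 array left out. H2B.6 became -0.0231 as the mean of its probes. Of 65 named calls, 50 held with the block, 20 and 15 with WT replicate 3 or 1 left out, and 2 with double mutant replicate 2 left out. With 3 arrays per genotype, small changes and dim genes are the least certain.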

Other observations

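A set of 10 gene families or groups, picked after their values were seen, held 16 rises and 6 falls in the double mutant. The rises of OsRPA32, OsRBR1 and AKT1, given above, are counted again here. The families were picked with their calls known, so their 13.3% of 166 genes cannot be read against the 4.53% of all genes. Of 5 measured protein arginine methyltransferases, enzymes that methylate histones and other proteins, 3 rose against WT by limma. PRMT3 rose by a log2 of 0.90 (adjusted p = 0.0174), PRMT1 by 0.85 (adjusted p = 0.0438) and PRMT10 by 0.78 (adjusted p = 0.0253), while PRMT5 differed by 0.31 (adjusted p = 0.116). Of 20 kinesins, motor proteins of spindles and microtubules, 3 rose, KIN14D by 0.70, KINUB by 0.45 and KIN14E by 0.37 (adjusted p of 0.0368, 0.0455 and 0.0498). In a group of 8 genes of retinoblastoma-related, DNA polymerase and RPA proteins 3 rose, OsRPA32 and OsRBR1 as given above and OspolD2 by 0.87 (adjusted p = 0.0285). Of 3 zinc-finger homeodomain genes OsZHD1 rose by 1.14 (adjusted p = 0.0332).

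The larger families held few calls. CCCH zinc-finger genes gave 3 rises and 1 fall among 35, and potassium transporters 1 rise and 1 fall among 21. Beta-glucosidases gave 1 rise and 1 fall among 18, and hexokinases the same among 6. There was 1 fall among 28 PP2C phosphatases and 1 among 22 CIPK kinases. With WT replicates 1, 2 and 3 left out in turn, 1, 11 and 1 of the 22 calls held, and for double mutant replicates 1, 2 and 3 the counts were 3, 0 and 9. None of the 3 kinesin calls held with any of these 6 arrays left out. Of the 3 methyltransferase calls, 2 held without WT replicate 2 or double mutant replicate 3, 1 without double mutant replicate 1, and 0 without any of the remaining 3 arrays.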
